A study of Mus musculus with 4 samples.

Results

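Caseins are the main proteins of milk, and thymic epithelial cells transcribe their genes although the thymus makes no milk. The 4 genes described here, Csn2 (ENSMUSG00000063157), Csn1s1 (ENSMUSG00000070702), Csn1s2a (ENSMUSG00000061937) and Csn3 (ENSMUSG00000001622), were chosen by symbol as the members of the milk casein cluster, out of 31053 genes counted. In the mammary gland the alpha and beta caseins, encoded by Csn1s1, Csn1s2a and Csn2, bind calcium phosphate, and kappa casein, encoded by Csn3, keeps the resulting micelles in suspension. Medullary thymic epithelial cells (mTECs) express many genes that are otherwise restricted to single tissues, in part under the regulators AIRE and FEZF2, and so show these antigens to developing T cells. RANK and CD40 are receptors through which RANKL and CD40 ligand act on the growth and maturation of mTECs.

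Droplet-based single-cell RNA sequencing had been run on thymic epithelial cells sorted as CD45- TER119- EPCAM+ from C57BL/6 mice 6 weeks of age. Of the 4 groups, WT-Control and WT-RANKL-Ab were wild-type mice, female according to the methods, and Cd40-/- Control and Cd40-/- RANKL-Ab were mice with germline loss of Cd40 on the same background. The RANKL-Ab groups had received a neutralizing antibody against RANKL at 5 mg/kg under the skin when 4 weeks of age, 2 weeks before analysis, and both Control groups a control IgG. Each group was 1 library made from 3 pooled mice, so no spread between mice was measured and no test between groups was possible. Intervals in brackets are exact 95% intervals and cover counting error only. Levels are unique molecular identifiers (UMIs) per 1000000 UMIs (CPM), summed over cells, from 3′ tags that were not divided by transcript length. Where 4 values are given in library order, WT-Control comes first and WT-RANKL-Ab next, followed by Cd40-/- Control and last by Cd40-/- RANKL-Ab.

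After filtering, 10218, 7164, 8591 and 2082 cells remained in library order. They held 95277834, 48640841, 66295255 and 19153685 UMIs, with medians of 7621.5, 6086, 6267 and 7531.5 UMIs per cell. A gene without a single UMI in a library therefore stayed below the level of 3 counts, which was 0.0315, 0.0617, 0.0453 and 0.157 CPM. Cd40 itself stood at 110.0, 28.8, 5.75 and 4.75 CPM in library order, so it was lowest in both libraries labelled as deficient. Their remaining 381 and 91 Cd40 UMIs are tags of the transcript's 3′ end and say nothing of a deleted part elsewhere in the gene. Barcodes that also occurred in another library made up 2.42%, 3.03%, 4.87% and 11.9% of cells, and 205 of them were common to both Cd40-/- libraries. Without such barcodes, 11 of 11 casein ratios to WT-Control over all cells that have an interval, and 10 of 10 in Aire-gated cells, stayed within it. The epithelial genes Epcam (834, 722, 652 and 523 CPM) and Krt8 (1592, 1984, 1650 and 2415 CPM) were abundant in each of the 4 libraries.

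Among the caseins Csn2 was by far the most abundant, and each casein was lower after RANKL neutralization and nearly absent where this was combined with loss of Cd40. Csn2, the beta casein gene, gave 76167, 4594, 44101 and 70 UMIs in library order, or 799, 94.4, 665 and 3.65 CPM. Csn1s2a, an alpha-S2 casein gene, reached 49.3, 3.0, 30.6 and 0.0522 CPM in the same order. Csn1s1, the alpha-S1 casein gene, reached 9.51, 0.863 and 6.06 CPM and had no UMI in Cd40-/- RANKL-Ab. Csn3 reached 13.2, 3.29, 6.23 and 0.0522 CPM. Each of the 4 genes thus ranked the libraries alike, with WT-Control highest and Cd40-/- RANKL-Ab lowest.

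Relative to WT-Control, RANKL neutralization in wild-type mice came with a Csn2 level 8.46-fold lower (8.22 to 8.72), or at a log2 ratio of -2.25 as a mean over cells in place of -3.08. Csn1s2a was lower still, by 16.4-fold (13.9 to 19.5), Csn1s1 by 11-fold (8.08 to 15.4), an interval that includes the Csn2 value, and Csn3 by 4.0-fold (3.39 to 4.75). Of the 146 Csn1s2a UMIs of WT-RANKL-Ab 1 cell held 43.2%, and without it the level was 1.71 CPM in place of 3.0. The Csn1s2a fold was thus larger without that cell, beyond what the interval covers. The cell richest in Csn3 held 31.2% and that richest in Csn1s1 26.2%, which left 2.26 and 0.637 CPM. With 1 CPM added to every level, the log2 ratios were -3.65 for Csn1s2a, -3.07 for Csn2, -2.50 for Csn1s1 and -1.72 for Csn3, so 4 of 4 caseins were lower by at least 2-fold, where 13.6% of 20414 genes were. The median log2 ratio was -2.78 for the caseins and -0.01 for all genes. The Csn2 comparison turned to a log2 ratio of 0.45 when the level of thymocyte-gated cells was subtracted, because those cells held 737 CPM of Csn2 in WT-Control. Such cells of WT-Control also held UMIs of Aire and Epcam.

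Loss of Cd40 alone came with smaller differences than RANKL neutralization, of which that of Csn3 was the largest among the 4 genes. The log2 ratios to WT-Control were -0.27 for Csn2 (-0.28 to -0.25), -0.65 for Csn1s1 (-0.82 to -0.48), -0.69 for Csn1s2a (-0.77 to -0.61) and -1.08 for Csn3 (-1.24 to -0.92). Csn3 was thus 2.11-fold lower (1.89 to 2.37) without an added CPM. With 1 CPM added, 0 of 4 caseins were lower by at least 2-fold, where 1.11% of 21110 genes were, with Csn3 nearest at -0.97, and their median log2 ratio was -0.62 against 0.06 for all genes. After subtraction of the thymocyte-gated level the Csn2 ratio turned to 3.2.

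With both signals removed, Csn2 was 219-fold lower than in WT-Control (173 to 281) and Csn1s1 at least 60.7-fold lower, its 0 UMIs taken as the floor of 3 counts. Csn1s2a and Csn3 were left with 1 UMI each, at log2 ratios of -9.88 (-15.19 to -7.41) and -7.98 (-13.28 to -5.50). With 1 CPM added, 4 of 4 caseins were lower by at least 2-fold, where 18.9% of 20207 genes were, with medians of -4.67 and -0.07. The 3 comparisons share WT-Control as their reference.

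The casein UMIs that remained in Cd40-/- RANKL-Ab lay in 12 cells, which were looked at after their number was known. A single microfold-gated cell held 35 Csn2 UMIs and the Csn3 UMI without any Aire UMI, and a single Aire-gated cell held 21 Csn2 UMIs beside 24 Aire UMIs. Those 2 cells carried 56 of the 70 Csn2 UMIs, and neither barcode occurred in another library. Of the other cells, 4 had barcodes shared with another library and together held 9 Csn2 UMIs. Class levels and ratios given for this library therefore rest on single cells.

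Cells were then sorted into classes by marker genes, so that levels could be compared within a kind of cell. A cell entered a class when the UMIs of that class's markers passed a limit per 10000 UMIs. A cell that passed several limits entered only the first of these classes in a fixed order, given with the processing. In that order the Aire gate came after those of tuft, microfold and enterohepatic cells and before those of cTEC and CCL21 cells. Aire-gated cells, the mTECs best known for promiscuous expression, were defined by Aire, Fezf2, Cd80 and Ccl22 and made up 31.6%, 13.6%, 21.4% and 3.84% of cells in library order. Microfold-gated cells express genes of the intestinal cells that take up antigen and numbered 386, 74, 296 and 1. Tuft-gated cells carry genes of chemosensory epithelium, CCL21-gated cells express Ccl21a, cTEC-gated cells express genes of the thymic cortex, and enterohepatic-gated cells express genes of gut and liver.

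Csn2 was highest in microfold-gated cells of the 3 libraries in which that class had at least 50 cells, at 2894 CPM (2832 to 2956) in WT-Control, 2436 (2268 to 2613) in WT-RANKL-Ab and, for Cd40-/- Control, 2534 (2457 to 2613). In WT-Control the order went on with enterohepatic-gated cells (1911 CPM), neuroendocrine-gated cells (1315), Aire-gated cells (1274) and cells without a class (942), and the intervals of the neuroendocrine-gated and Aire-gated classes overlapped. Thymocyte-gated cells (737 CPM) and ciliated-gated cells (711), which overlapped, and keratinocyte-gated cells (432) followed. At the lower end stood cycling cells (197 CPM) and cTEC-gated cells (191), then tuft-gated cells (85.8) and CCL21-gated cells (78.8), each a pair with overlapping intervals, and last progenitor-gated cells (44.6). Csn2 UMIs were thus found in every class of WT-Control. The levels of the last 6 classes lay below that of thymocyte-gated cells, which should lack caseins but also held Aire and Epcam UMIs. The 22 thymocyte-gated cells without a UMI of Epcam, Krt8 or Krt18 held 81.2 CPM (16.75 to 237). Of the last 6 classes, only keratinocyte-gated cells (377 to 493) had an interval above that one. The part of background RNA in these levels was not tested. The classes were not free of Aire: 67.0% of enterohepatic-gated and 32.6% of microfold-gated cells of WT-Control had an Aire UMI, at 510.1 and 224 CPM, and the median Aire gate score of the enterohepatic-gated cells was 8.33, above that gate's limit of 6. In Cd40-/- Control the order was microfold-gated, enterohepatic-gated (2078 CPM), Aire-gated (1390.1), ungated (1142), neuroendocrine-gated (933) and ciliated-gated cells (678), and keratinocyte-gated cells (314) were the highest of the others. In WT-RANKL-Ab the microfold-gated class stood far above Aire-gated cells (307 CPM) and cells without a class (274), and CCL21-gated cells (28.5) were the highest of the other classes with at least 50 cells. Of smaller classes there, 26 enterohepatic-gated cells held 637 CPM (496 to 807) and 47 ciliated-gated cells 208 CPM (147 to 287). Aire-gated cells held 62.8% of the Csn2 UMIs of WT-Control, and microfold-gated cells held 11.2% in 3.78% of the cells.

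**Figure D1:**
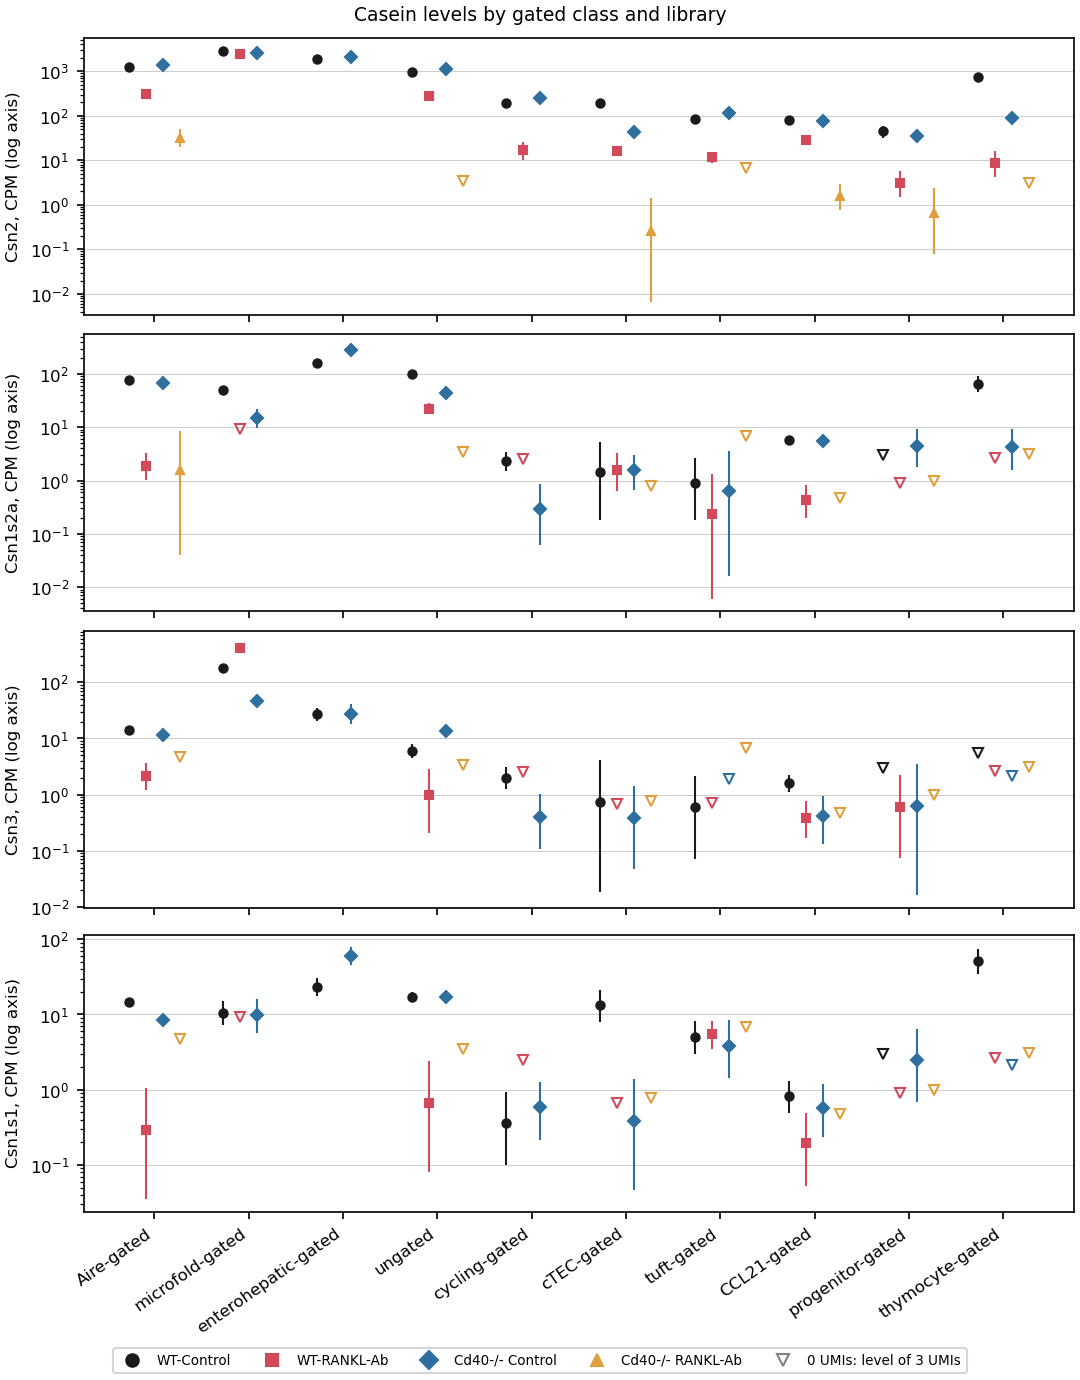
Level of each casein gene (CPM, log axis) in classes of at least 50 cells, by library (neuroendocrine-gated, ciliated-gated and keratinocyte-gated cells are not drawn), with exact 95% Poisson intervals; open triangles mark classes without a UMI, drawn at the level of 3 UMIs. Csn2 and Csn3 are highest in microfold-gated cells in WT-Control (2894 and 180 CPM), and Csn1s1 of WT-RANKL-Ab is highest in tuft-gated cells (5.48 CPM).

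The other caseins had their own order. Csn3 was highest in microfold-gated cells, at 180 CPM (165 to 196) in WT-Control, 411 (344 to 488) in WT-RANKL-Ab and, for Cd40-/- Control, 45.9 (36.0 to 57.6), where its interval overlapped that of enterohepatic-gated cells (27.6 CPM). In WT-Control this class held 42.4% of all Csn3 UMIs, as many as the far larger Aire-gated class (41.9%), and in WT-RANKL-Ab it held 82.5% of them in 1.03% of the cells. The cell with the most Csn3 UMIs accounted for 19.4%, 37.9% and 17.6% of the class's Csn3, and without it the levels were 145, 255 and 37.8 CPM. Csn3 UMIs numbered 6.23 per 100 Csn2 UMIs in microfold-gated cells of WT-Control and 1.10 per 100 in its Aire-gated cells, a measure added after the levels were seen, so the mix of caseins differed between both classes.

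The alpha caseins were highest elsewhere. Csn1s2a reached 160 CPM (144 to 177) in enterohepatic-gated cells of WT-Control and 283 (249 to 320) in those of Cd40-/- Control, against 77.5 and 69.1 CPM in Aire-gated cells. A single cell held 32.6% and 66.0% of those enterohepatic UMIs. Csn1s1 stood at 23.1 CPM (17.4 to 30.1) and 59.7 CPM (44.9 to 77.9) in the same enterohepatic-gated classes, with 30.9% and 29.6% of the UMIs in 1 cell. In WT-Control that interval overlapped those of ciliated-gated cells (20.8 CPM) and cells without a class (17.2 CPM), so Csn1s1 had no clear highest class there. The 26 enterohepatic-gated cells of WT-RANKL-Ab held 102 CPM of Csn1s1 (50.7 to 182) and 443 CPM of Csn1s2a (327 to 588), above both Control libraries, from 1 positive cell for each gene. The values of 199.99 CPM for Csn1s2a and 98.0 CPM for Csn1s1 in neuroendocrine-gated cells of WT-Control and Cd40-/- Control rested to 98.7% and 81.5% on 1 cell each, and the 51.3 CPM of Csn1s1 in thymocyte-gated cells of WT-Control came from 1 cell alone. High class levels of the alpha caseins therefore came from few cells.

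Among classes of at least 50 cells, Csn1s1 in tuft-gated cells was an exception to the low casein levels of WT-RANKL-Ab, but not the only one. In microfold-gated cells Csn3 stood at 411 CPM in WT-RANKL-Ab against 180 in WT-Control, and Csn2 at 2436 against 2894. Tuft-gated cells held 5.06 CPM of Csn1s1 in WT-Control, 5.48 in WT-RANKL-Ab and, for Cd40-/- Control, 3.86, from 17, 23 and 6 UMIs. None of 65 cells in Cd40-/- RANKL-Ab had a UMI, which leaves an interval up to 8.27 CPM. The log2 ratio of WT-RANKL-Ab to WT-Control was 0.11 (-0.85 to 1.11), and this class held 54.8% of the Csn1s1 UMIs of WT-RANKL-Ab. In the same tuft-gated cells Csn2 was lower in WT-RANKL-Ab, at 11.9 against 85.8 CPM, a log2 ratio of -2.85 (-3.31 to -2.41). Csn1s1 UMIs numbered 46.0 per 100 Csn2 UMIs in tuft-gated cells of WT-RANKL-Ab and 5.90 in those of WT-Control, but 0.0945 and 1.14 in Aire-gated cells.

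The tuft-gated cells with a Csn1s1 UMI were inspected after these levels were known. They numbered 9 of 429 in WT-Control, 12 of 626 in WT-RANKL-Ab and, for Cd40-/- Control, 3 of 257, and 6, 10 and 2 of them had no other casein UMI. Their median depths were 6894, 11575 and 11269 UMIs, where those of the whole class were 6799, 6101 and 5277. At least 2 Csn1s1 UMIs were found in 5, 5 and 1 of them. Thymocyte-gated cells of WT-RANKL-Ab had no Csn1s1 UMI in 244 cells, at a median of 1744.5 UMIs against 6101 in tuft-gated cells. In WT-Control, 0 of 429 tuft-gated cells exceeded the thymocyte-gated Csn1s1 level, which was 51.3 CPM and came from a single cell. Thinned to 1000 UMIs per cell, with 13, 29 and 14 shallower tuft-gated cells left out, the shares with Csn1s1 were 0.481%, 0.168% and 0, too few cells to compare.

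Within Aire-gated cells the caseins were also lower after RANKL neutralization. Csn2 stood at 1274, 307, 1390.1 and 32.5 CPM in library order, the last from 1 cell. Csn1s2a stood at 77.5, 1.89, 69.1 and 1.55 CPM, Csn3 at 14.0, 2.18, 11.5 and 0, and Csn1s1 at 14.6, 0.290, 8.39 and 0. Csn1s1 thus differed most between both Control libraries in this class, 1.73-fold (1.45 to 2.09), and the alpha caseins all but disappeared from WT-RANKL-Ab.

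For WT-RANKL-Ab the log2 ratios to WT-Control in Aire-gated cells were -2.05 for Csn2 (-2.12 to -1.99), -5.36 for Csn1s2a (-6.27 to -4.58), -2.69 for Csn3 (-3.53 to -1.95) and -5.65 for Csn1s1 (-8.70 to -3.79), the last from 2 UMIs. In WT-RANKL-Ab 1 cell held 92.3% of the 13 Csn1s2a UMIs and 1 cell 66.7% of the 15 Csn3 UMIs, which the intervals do not cover. For Cd40-/- Control they were 0.13 for Csn2 (0.10 to 0.15), -0.17 for Csn1s2a (-0.26 to -0.07), -0.29 for Csn3 (-0.53 to -0.05) and -0.79 for Csn1s1 (-1.06 to -0.53). In Cd40-/- RANKL-Ab, with 80 Aire-gated cells, Csn1s1 and Csn3 had no UMI and were at least 3.13-fold and 3.02-fold lower at the floor of 3 counts (4.65 CPM, where the exact interval reached 5.71), Csn2, from 1 cell, had a log2 ratio of -5.29 (-5.98 to -4.68) and Csn1s2a, from 1 UMI, of -5.65 (-10.95 to -3.17). Subtraction of the thymocyte-gated level turned the Csn1s2a ratio of Cd40-/- Control to 2.49 and reduced the size of the Csn2 ratio of WT-RANKL-Ab to -0.85. Ratios of WT-RANKL-Ab stayed below 0 with other gate limits but moved: doubled limits gave -1.05 for Csn2, -3.57 for Csn1s2a and -1.89 for Csn3, and halved limits -2.68, -3.76 and -3.45. As a mean over cells Csn1s2a was at -3.78 and Csn1s1 at -4.28, and without the 5% deepest cells Csn3 was at -4.48.

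The Aire gate did not hold the same cells in every library. Aire itself stood at 618, 186, 687 and 52.7 CPM in the gate, Fezf2 at 812, 876, 639 and 821 CPM, and the median Ccl21a score was 2.70, 138.8, 1.08 and 215.8 per 10000 UMIs, with median cTEC scores of 9.34, 12.9, 6.65 and 49.6. Within 20% of the gate's limit, on either side of it, lay 905, 625, 662 and 72 cells, of which 298, 228, 175 and 31 were members of the gate. Among Aire-gated cells with at least 3 Aire UMIs per 10000, a limit chosen after these values were seen, Csn2 reached 1426 CPM in WT-Control, 823 in WT-RANKL-Ab and, for Cd40-/- Control, 1527, which brought the log2 ratio of WT-RANKL-Ab to -0.79. The ratios of Csn1s2a, Csn1s1 and Csn3 in such cells were -3.07, -3.43 and -0.97, but rested on 2, 2 and 1 positive cells among the 194 of WT-RANKL-Ab. Cd40-/- RANKL-Ab had 4 such cells, 1 of them with Csn2, and a Csn2 ratio of -1.27. A lower casein level in the gate and a changed makeup of the gate cannot be told apart in full from these data.

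The share of Aire-gated cells with a Csn2 UMI was 79.1% (77.7 to 80.5), 21.9% (19.3 to 24.6), 82.3% (80.4 to 84.0) and 1.25% (0.0316 to 6.77) in library order, at median depths of 10892, 6610.0, 9457 and 7520.5 UMIs. Thinned to 1000 UMIs per cell, with 42, 24, 22 and 0 cells left out, the shares were 48.0%, 14.0%, 54.5% and 1.25%. Among gated cells with at least 3 Aire UMIs per 10000 the unthinned shares were 86.9%, 59.8% and 88.8% in the first 3 libraries, and 67.8% of the gate of WT-RANKL-Ab had no Aire UMI. Thymocyte-gated cells, which should lack caseins, had shares of 41.5%, 2.46%, 10.7% and 0 at medians of 2969.5, 1744.5, 1381 and 1637.5 UMIs, and thinned shares of 25.7%, 0.50%, 3.63% and 0. Csn2 was therefore detected in a larger share of Aire-gated than of thymocyte-gated cells in the first 3 libraries, by the smallest factor in WT-Control.

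Shares for the other caseins in Aire-gated cells were 6.34%, 0.206%, 5.23% and 1.25% for Csn1s2a, 4.21%, 0.617%, 3.21% and 0 for Csn3, and 3.53%, 0.206%, 2.94% and 0 for Csn1s1. After thinning they were 3.04%, 0.211%, 2.48% and 0, then 1.03%, 0.421%, 0.716% and 0, then 1.19%, 0.105%, 0.661% and 0. In thymocyte-gated cells of WT-Control, Csn1s2a was found in 4.88% of cells and Csn1s1 in 1.22%, the latter a single cell with 28 UMIs, and Csn3 in none of 82 cells in this library nor in 244, 394 and 202 cells of the others. Thinned, the Csn1s2a share in thymocyte-gated cells of WT-Control was 2.86%, close to the 3.04% of Aire-gated cells. In that library the share of cells thus did not set Csn1s2a apart from this blank. However, 3 of the thymocyte-gated cells held 97.2% of their Csn1s2a UMIs, at a class level of 66.0 CPM. Tuft-gated cells of the same library held 0.894 CPM of Csn1s2a. In Cd40-/- Control the thymocyte-gated share was 0.508% without thinning and 0 with it.

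The thymocyte-gated cells of WT-Control were an imperfect blank. They held 737 CPM of Csn2 beside 227 CPM of Aire and 335 CPM of Epcam, and 30.5% had an Aire UMI. The 22 of them without a UMI of Epcam, Krt8 or Krt18, a subset examined after these values were seen, held 3 Csn2 UMIs, or 81.2 CPM (16.75 to 237). Thymocyte-gated cells of the other libraries held 8.88, 88.5 and 0 CPM of Csn2. Cells whose casein UMIs exceeded the thymocyte-gated level at their depth, at a Poisson upper tail under 0.001, numbered 777, 160 and 1062 of the Aire-gated class for Csn2 in the first 3 libraries, 95 for Csn1s2a in WT-Control and 59 in Cd40-/- Control, and 40 for Csn1s1 in WT-Control. For Csn3 in every library, and for the other genes wherever no count is given, the thymocyte-gated level was 0, so that any UMI would pass. Since the blank differed between libraries, these counts describe each library and are not to be set against one another.

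Class makeup differed between libraries, and its part in the casein differences was not tested. If each class had kept its WT-Control level, the class shares of WT-RANKL-Ab would have given 355.0 CPM of Csn2 where 94.4 was observed, those of Cd40-/- Control 640.4 where 665 was observed, and those of Cd40-/- RANKL-Ab 209 where 3.65 was observed. For Csn3 the makeup of WT-RANKL-Ab gave 4.51 CPM where 3.29 was observed, and for Csn1s2a 22.7 where 3.0 was observed. This calculation was added after the class levels were known, and it treats a class as uniform, which the Aire gate was not. Observed levels were below the makeup value for these genes in WT-RANKL-Ab, least so for Csn3, and near it for Csn2 in Cd40-/- Control. The other caseins of Cd40-/- Control were also below it, Csn1s1 at 6.06 against 9.06 CPM, Csn1s2a at 30.6 against 39.3 and Csn3 at 6.23 against 10.03.

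In microfold-gated cells of WT-RANKL-Ab, Csn2 was somewhat below and Csn3 above its level in WT-Control, whereas Csn1s2a and Csn1s1 had no UMI. The Csn2 log2 ratio was -0.25 (-0.36 to -0.14), and that of Csn3 was 1.19 (0.90 to 1.47). WT-RANKL-Ab had 74 such cells of low depth (median 2404 UMIs, against 6597 in WT-Control), and 60.8% of them had a Csn2 UMI against 81.9%. Thinned, with 14 and 37 cells left out, the shares were 55.0% and 70.5%. In Cd40-/- Control the log2 ratios were -0.19 (-0.25 to -0.14) for Csn2, -1.98 (-2.35 to -1.62) for Csn3, -1.72 (-2.41 to -1.09) for Csn1s2a and -0.08 (-1.05 to 0.83) for Csn1s1. For Csn2 1 cell held 21% of the UMIs of this class in WT-RANKL-Ab, against 4.98% and 3.01% in WT-Control and Cd40-/- Control, and without these cells the levels were 1925, 2749 and 2458 CPM. The median of positive cells was 5, 16 and 10 Csn2 UMIs in that order. Csn3 varied in both directions on 28, 8 and 20 positive cells. At the floor of 3 counts, Csn1s2a of WT-RANKL-Ab was at least 5.26-fold and Csn1s1 at least 1.12-fold lower than in WT-Control. The exact interval of 0 UMIs reached 11.5 CPM, below the 49.2 CPM of Csn1s2a in WT-Control but above the 10.5 CPM of Csn1s1. Csn1s1 was therefore too low to compare.

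Csn2 was higher in cells with more Aire UMIs, a relation examined after the class levels were known. Cells with at least 5000 UMIs were thinned to 5000 and binned by Aire UMIs. They were pooled over all classes, without thymocyte-gated and cTEC-gated cells and those that passed both of these gates. Classes were not separated within a bin, so class makeup and Aire UMIs cannot be told apart here. In WT-Control the Csn2 level was 388 CPM without an Aire UMI, 1145 with 1 to 2, 1452 with 3 to 5 and 1519 with 6 or more. WT-RANKL-Ab went from 47.8 to 549.7, 812 and 1208 CPM, the last bin with 26 cells, and Cd40-/- Control from 371 to 1290.5, 1416 and 1625 CPM. Within every bin Csn2 was lower in WT-RANKL-Ab than in the other 2 libraries. Csn1s2a in WT-Control followed the same course from 17.4 to 83.7, 97.6 and 97.2 CPM, but in Cd40-/- Control it went from 14.4 to 49.7 and 111 and back to 35.4 CPM. Csn3 did not follow Aire in WT-Control, at 11.6, 17.4, 10.1 and 12.7 CPM, but was higher with more Aire in Cd40-/- Control, at 3.25, 12.6, 13.4 and 20.8 CPM. Csn1s1 went from 4.37 to 15.1 and 16.1 and back to 5.28 CPM in WT-Control, and from 3.59 to 17.9, 11.8 and 13 CPM in Cd40-/- Control. In WT-RANKL-Ab, cells with 3 to 5 Aire UMIs held 118 CPM of Csn1s2a and 15.7 CPM of Csn3. Both values came from 1 positive cell and lay above WT-Control. In its other bins Csn1s2a was below WT-Control, and Csn3 and Csn1s1 were below it without an Aire UMI and with 1 to 2. With 6 or more, Csn3 and Csn1s1 had no UMI in WT-RANKL-Ab, but the interval reached 28.4 CPM, above both WT-Control levels. With 3 to 5, Csn1s1 had no UMI, and its interval, up to 14.5 CPM, overlapped that of WT-Control (12.8 to 19.9). These cases were too low to compare.

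**Figure D2:**
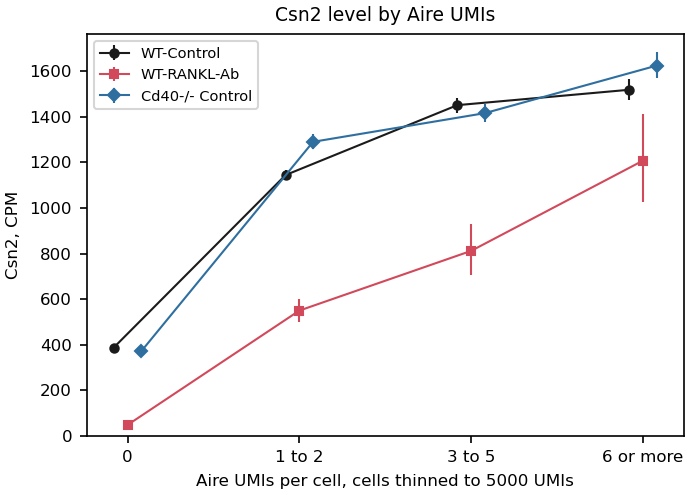
Csn2 level (CPM) by the number of Aire UMIs in cells thinned to 5000 UMIs, for WT-Control, WT-RANKL-Ab and Cd40-/- Control, with exact 95% Poisson intervals. Cells are pooled over classes, without thymocyte-gated and cTEC-gated cells. Levels go from 388 to 1519 CPM in WT-Control and from 47.8 to 1208 CPM in WT-RANKL-Ab.

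Csn2 and the rarer caseins differed in how their RNA was spread over cells, a description chosen after values were seen. Among Aire-gated cells of WT-Control, 2557 had Csn2, with a median of 10 UMIs and at most 422. Csn1s2a was found in 205 cells (median 4, at most 166), Csn3 in 136 (median 1, at most 33) and Csn1s1 in 114 (median 2, at most 35). The 1% of cells with the most UMIs of a gene, 33 cells, held 10.4% of Csn2 but 66.7% of Csn1s2a, 72.1% of Csn3 and 69.6% of Csn1s1. The same shares were in Cd40-/- Control 9.54%, 75.5%, 76.9% and 71.7%. Csn2 UMIs were therefore found in most Aire-gated cells, and those of each other casein in a small minority. A gene found in fewer cells has a larger share in its top 1% by construction. Of the 3231 cells of WT-Control, 777 exceeded the thymocyte-gated level for Csn2, 95 for Csn1s2a and 40 for Csn1s1. For Csn2 in Cd40-/- Control 1062 of 1837 did. The part of background RNA in the spread of Csn2 was not tested.

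**Figure D3:**
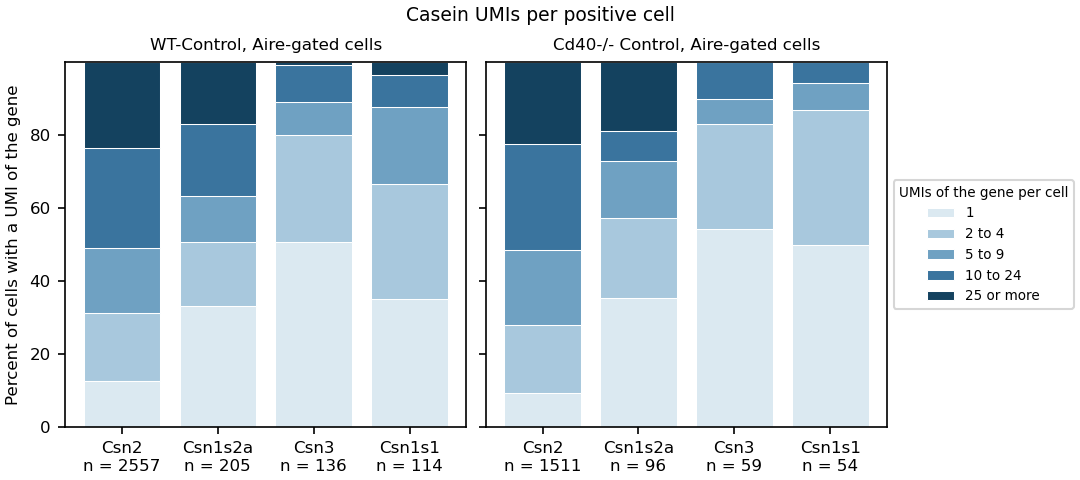
Percent of casein-positive Aire-gated cells by number of UMIs of the gene, in WT-Control and Cd40-/- Control, with the number of positive cells under each bar. Cells with a single UMI make up 12.6% of Csn2-positive cells and 50.7% of Csn3-positive cells in WT-Control.

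The rare caseins were found together in single cells more often than their separate shares would give. In Aire-gated cells of WT-Control thinned to 1000 UMIs, Csn1s1 and Csn1s2a occurred together in 9 cells where 1.16 were expected, a ratio of 7.79 (3.56 to 14.8). Without thinning they met in 30 cells where 7.23 were expected, a ratio of 4.15 (2.80 to 5.92). The unthinned ratios were 3.94 (2.73 to 5.51) for Csn1s2a with Csn3, from 34 cells, and 3.13 (1.75 to 5.16) for Csn1s1 with Csn3, from 15 cells. Thinned, they were 3.98 (1.09 to 10.2) and 12.7 (4.13 to 29.7), from 4 and 5 cells. Unthinned ratios of Cd40-/- Control were 5.67 (3.24 to 9.21) for Csn1s1 with Csn1s2a, 3.57 (1.78 to 6.38) for Csn1s2a with Csn3 and 1.73 (0.357 to 5.06) for Csn1s1 with Csn3, the last from 3 cells, and after thinning these pairs met in 1, 1 and 0 cells. With at least 2 UMIs of each gene required, the thinned ratio of Csn1s1 with Csn3 in WT-Control turned to 0. In WT-RANKL-Ab no Aire-gated cell held 2 of these 3 genes, and fewer than 1 was expected for each pair.

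Csn2 met each of the rare caseins in nearly every cell that had one. Of Aire-gated WT-Control cells with Csn1s1, Csn1s2a and Csn3, 97.4%, 96.1% and 97.8% had Csn2, against 78.5%, 78.0% and 78.3% of the cells without the rare gene. Thinned ratios of observed to expected cells were 2.03, 1.95 and 1.77, and unthinned 1.23, 1.21 and 1.24, values that the commonness of Csn2 holds down. Of 3231 cells, 660 had no casein, 2190 had Csn2 alone, 298 had 2 caseins, 64 had 3 and 5 had all 4. Median depth was 7816 UMIs in cells without a casein and 11572 in those with 3 or 4.

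Cells with a rare casein also had more Csn2, a comparison chosen after joint detection was seen. Csn2 stood at 3484 CPM (3386 to 3584) in cells with Csn1s1 and 1190.2 in cells without, at 3347 and 1114 for Csn1s2a, and at 2864 and 1184 for Csn3. The 75 cells with at least 10 Csn1s2a UMIs reached 4680.2 CPM. Median depths were near one another for Csn1s1 (10941 and 10892 UMIs) and Csn1s2a (11572 and 10846) but not for Csn3 (12418 and 10797), and Aire stood at 578 and 620 CPM beside Csn1s1, at 640.2 and 617 CPM beside Csn1s2a and at 687 and 614 CPM beside Csn3. The Csn2 levels of Cd40-/- Control were 3009 and 1328, 3262 and 1271, and 3109 and 1325 CPM. There the cells with a rare casein were deeper, at 12416 and 9398 UMIs for Csn1s1, 10215 and 9406 for Csn1s2a and 10736 and 9388.5 for Csn3, and Aire stood at 669 and 687, 773 and 681, and 917 and 678 CPM. The part of depth and Aire in the Csn2 difference was not tested. Across all thinned cells the correlations were weak, with Pearson r at most 0.24 for any casein pair of WT-Control, over 3189 cells that share 1 library.

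The 4 genes lie in one stretch of chromosome 5, which GENCODE places on GRCm38 at 87666208 to 87682578 for Csn1s1 (plus strand), 87692624 to 87699630 for Csn2 (minus strand), 87774567 to 87788797 for Csn1s2a (plus) and 87925579 to 87932665 for Csn3 (plus). The span of 266458 bases holds 7 protein-coding genes, with Csn1s2b, Prr27 and Odam between Csn1s2a and Csn3. Csn1s2b, a second alpha-S2 casein gene, and Odam, a gene of ameloblasts and junctional epithelium, stood at 9.17 and 7.81 CPM in Aire-gated cells of WT-Control and at 0.436 and 0.581 in those of WT-RANKL-Ab. Each had at most 4 UMIs in the latter. Of the 7 genes, 6 had at least 20 UMIs in Aire-gated WT-Control cells, as did 15 of 27 genes in the 700 kb on either side, a count made after the values were seen. Without the share over all genes beside it, this count does not show whether 6 of 7 is unusual.

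Joint detection of the rare caseins with their neighbours was set beside that with milk and other tissue-restricted genes from elsewhere. Over the genes of a list of 18 genes near the caseins, of which 17 were in the files, the median ratio of observed to expected cells in Aire-gated WT-Control was 3.67 for Csn1s1, 3.82 for Csn1s2a and 2.15 for Csn3. For milk genes outside the region the medians were 1.35, 1.46 and 1.49, and for other tissue-restricted genes 1.56, 1.68 and 1.195. In Cd40-/- Control the medians were 2.18, 3.38 and 2.12 for the region, 1.60, 1.06 and 1.15 for milk genes, and 1.47, 1.52 and 1.24 for the others. The ranges of the lists overlapped for each casein. These medians cover genes with at least 1 expected cell, were taken without thinning and after the casein pairs were known, and no test set the lists against one another.

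Of the neighbours, Odam had the highest ratio of observed to expected cells with Csn3 in WT-Control, with 29 cells where 3.2 were expected (9.07, 6.07 to 13). Csn1s2b met Csn1s2a in 33 cells where 6.47 were expected (5.1, 3.51 to 7.16) and Csn3 in 24 where 4.29 were expected (5.59, 3.58 to 8.32). Amtn, an enamel matrix gene farther along the chromosome, met Csn1s1 in 26 cells where 5.61 were expected (4.63, 3.03 to 6.79). Utp3 and Rufy3, broadly expressed genes at the end of the list, gave ratios between 0.819 (Rufy3 with Csn1s1) and 1.21 (Utp3 with Csn3), with intervals that included 1. Raised joint detection therefore reached past the caseins but not to every gene of the region.

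**Figure D4:**
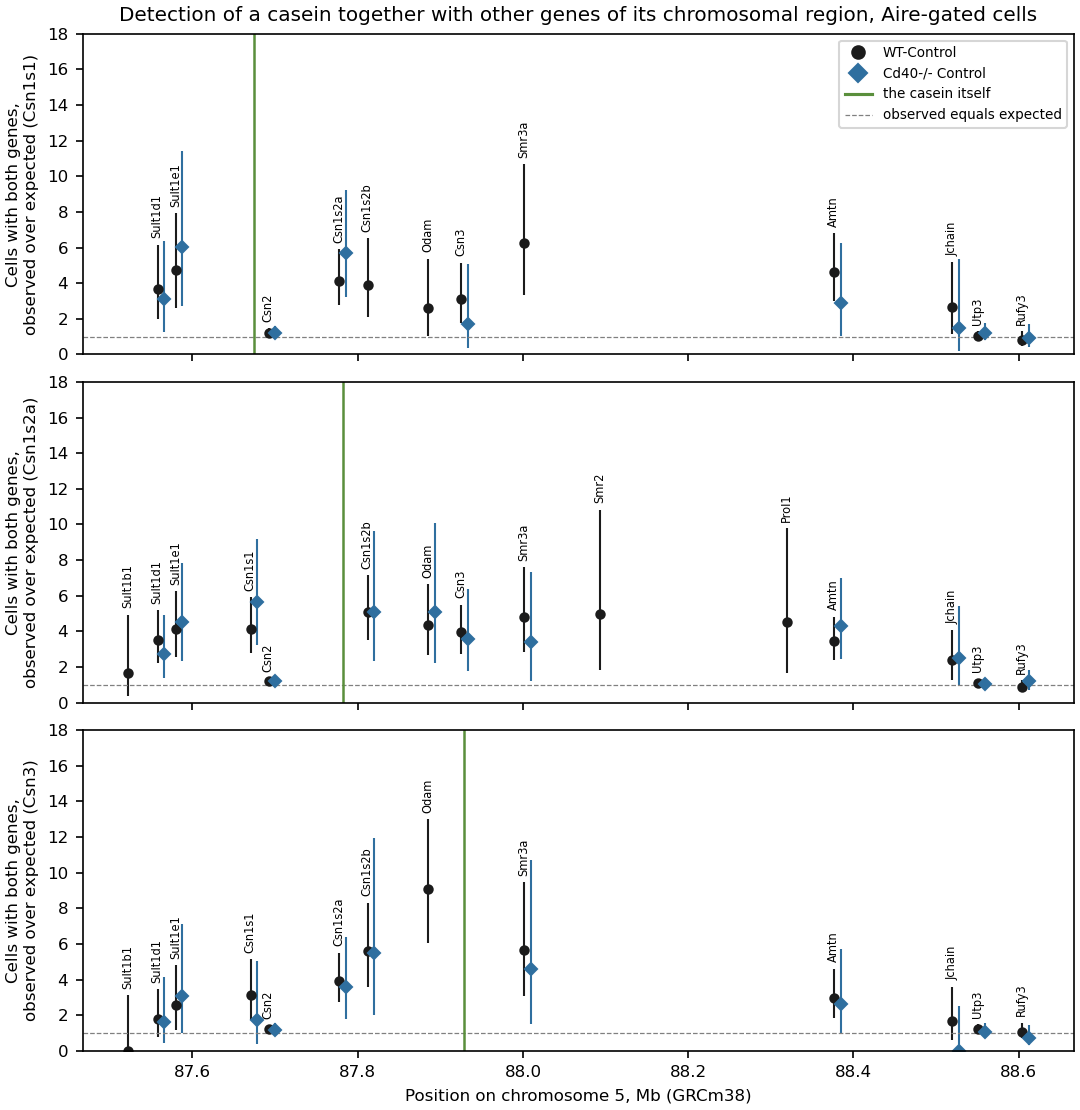
Observed over expected number of Aire-gated cells with both genes, for Csn1s1, Csn1s2a and Csn3 against other genes of their region with at least 1 expected cell, by position on chromosome 5 (Mb) in WT-Control and Cd40-/- Control, unthinned; bars are exact 95% Poisson intervals of the observed count. Odam with Csn3 stands highest (9.07 in WT-Control), and Utp3 and Rufy3 lie near 1.

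Promoters of 3 of the 4 genes were read from RefSeq on GRCm38.p6, from 250 bases before to 50 after each start, because these members were low and high together. Csn1s1 is given from chr5:87665958-87666257 on the plus strand, Csn2 from chr5:87699376-87699675 on the minus strand and Csn1s2a from chr5:87774200-87774499 on the plus strand, each 5′ to 3′. Csn3 had no entry. Capitals mark TTCNNNGAA, the palindromic letters recognised by STAT5, through which prolactin acts in mammary cells; as a palindrome it reads alike on both strands.
Csn1s1: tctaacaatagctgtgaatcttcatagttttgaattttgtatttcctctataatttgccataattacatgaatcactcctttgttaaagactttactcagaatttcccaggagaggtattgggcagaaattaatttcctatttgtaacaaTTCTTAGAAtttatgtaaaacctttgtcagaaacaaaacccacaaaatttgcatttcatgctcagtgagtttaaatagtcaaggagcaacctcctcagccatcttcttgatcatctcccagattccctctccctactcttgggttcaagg
Csn2: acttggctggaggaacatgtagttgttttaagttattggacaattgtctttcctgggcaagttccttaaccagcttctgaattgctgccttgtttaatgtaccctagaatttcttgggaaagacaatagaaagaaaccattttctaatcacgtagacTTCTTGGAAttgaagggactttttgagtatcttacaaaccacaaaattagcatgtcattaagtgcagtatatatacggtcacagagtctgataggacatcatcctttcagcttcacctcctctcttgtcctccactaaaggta
Csn1s2a: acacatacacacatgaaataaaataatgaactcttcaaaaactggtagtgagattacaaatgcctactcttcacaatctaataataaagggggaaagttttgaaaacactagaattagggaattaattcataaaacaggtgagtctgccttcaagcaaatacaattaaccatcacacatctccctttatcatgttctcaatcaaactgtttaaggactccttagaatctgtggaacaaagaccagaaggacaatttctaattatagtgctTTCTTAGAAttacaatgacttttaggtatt
TTCNNNGAA occurred in 3 of 3 of these promoters and in 8.30% of 32851 promoters of the same length. It began 100 bases before the start of Csn1s1, 93 before that of Csn2 and 20 after that of Csn1s2a, counted from the RefSeq starts. The GENCODE start given above is the same for Csn1s1, but counted from it the match began 112 bases inside Csn2 and 97 bases before Csn1s2a. Of genes with a promoter entry it occurred in 1 of 16 of the region's list (Cabs1), 1 of 12 milk genes (Glycam1), 1 of 8 lactogenic regulators (Cish), 0 of 4 regulators of promiscuous expression and 0 of 9 other tissue-restricted genes. The same half-sites with 4 bases between them and the TATAAA box were also searched on both strands and occurred in 6.95% and 13.6% of all promoters. Of the 3 casein promoters, the wider spacing occurred in 1, Csn2, where it is not capitalised, and TATAAA in none. Matches are descriptions of letters, and the motifs were chosen with the genes known.

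The mammary regulators behind casein transcription in milk were looked at as a list. Of 11 lactogenic regulators, 1 was lower and 3 were higher by at least 2-fold in WT-RANKL-Ab, where 13.6% of all genes were lower and 4.45% higher, and the list's median log2 ratio was 0.22. The lower one was Elf5, a factor of the mammary secretory lineage, at 4.40, 0.493, 3.53 and 0 CPM in library order. Ghr, Nr3c1 and Nfib were the higher ones, at 10.1, 32.0 and 48.0 CPM in WT-Control and 23.6, 69.7 and 157 CPM in WT-RANKL-Ab. The prolactin receptor gene Prlr was measured at 8.74, 8.0, 12.2 and 4.75 CPM and Stat5a at 65.5, 53.2, 56.7 and 23.9 CPM. In Cd40-/- Control 0 were lower and 3 (Jak2, Nr3c1 and Nfib) higher (median 0.44), where 1.11% of all genes were lower and 2.52% higher, and in Cd40-/- RANKL-Ab 2 (Elf5 and Stat5a) were lower and 3 (Ghr, Nr3c1 and Nfib) higher (median -0.01), where 18.9% were lower and 9.15% higher. The lower counts of this list were near those shares.

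Most other tissue-restricted genes and most neighbours of the caseins with enough UMIs were lower in both RANKL-Ab libraries. Of all genes, 13.6%, 1.11% and 18.9% were lower by at least 2-fold than in WT-Control in the other libraries, in library order. Of 12 other tissue-restricted genes, 11 were lower by at least 2-fold in WT-RANKL-Ab (median log2 ratio -2.77), Ins2 and Tff3 in Cd40-/- Control (-0.40) and, for Cd40-/- RANKL-Ab, 10 (-5.02), and none was higher. Tff3, a trefoil peptide gene of mucosa, went from 161 to 2.86 CPM and Ins2, an insulin gene, from 36.9 to 0.617 CPM in WT-RANKL-Ab, while Crp was measured at 34.7 and 58.0 CPM. Of 14 genes of the region's list with enough UMIs, 10 were lower in WT-RANKL-Ab (median -1.48) and 11 in Cd40-/- RANKL-Ab (-2.05), and 1 of 15, Csn1s2b, in Cd40-/- Control (-0.19). Jchain, the joining chain of IgA and IgM, was the 1 member higher in WT-RANKL-Ab over all cells, at 5.14 and 42.9 CPM. In Aire-gated cells Jchain was lower there, at 8.77 CPM in WT-Control and 1.45 in WT-RANKL-Ab, from 329 and 10 UMIs. Utp3 and Rufy3 had log2 ratios of 0.17 and 0.64 over all cells.

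Of 15 milk genes outside the region, 9 were lower in WT-RANKL-Ab (median log2 ratio -1.45), Wap alone in Cd40-/- Control (-0.13) and, for Cd40-/- RANKL-Ab, 9 (-1.59), where Mfge8 and Xdh were higher, against 13.6%, 1.11% and 18.9% of all genes lower and 9.15% higher in the last library. Wap, the whey acidic protein gene, stood at 16.6 CPM in WT-Control and 0.0617 in WT-RANKL-Ab and Spp1, the osteopontin gene, at 101 and 1.40 CPM, but Wfdc18, a whey-type protease inhibitor gene, stood at 3072 and 3099.9 CPM. Of the 4 regulators of promiscuous expression, Aire was lower by at least 2-fold in WT-RANKL-Ab (333 to 34.5 CPM; list median -0.66), none passed 2-fold in Cd40-/- Control (0.13), and Aire and Fezf2 were lower in Cd40-/- RANKL-Ab (2.77 and 90.5 CPM; -1.33).

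In WT-Control the caseins were higher in Aire-gated than in CCL21-gated cells, as levels summed over the cells of each class. With 1 CPM added, 4 of 4 were higher in Aire-gated cells by at least 2-fold, where 24.2% of 18689 genes were and 9.41% were lower, and the median log2 ratio was 3.304 against 0.15 for all genes. The region's list had 10 of 14 higher (median 1.87), milk genes 9 of 13 higher and Xdh and Wfdc18 lower (1.96), other tissue-restricted genes 11 of 12 higher and Crp lower (2.31), lactogenic regulators Elf5 of 11 higher and Nfib lower (-0.26) and regulators of promiscuous expression 2 of 4 higher (1.13). Those 2, Aire and Fezf2, are markers of the gate, so their difference is no result. Apoa1, on the list of other tissue-restricted genes, is a marker of the enterohepatic gate. That gate was applied before the Aire and CCL21 gates, so it took cells rich in Apoa1 out of both classes.

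Across 45 units of class and library with at least 50 cells, the patterns most like each casein were sought among 16150 genes by Pearson r of log2(CPM + 1). Closest to Csn2 were Gm29461 (0.97), Tm4sf5 (0.96), S100a8 (0.96), Marc1 (0.96) and Ncf1 (0.95), and to Csn1s2a Sbp (0.92), Mpo (0.91), Aifm3 (0.90), Mia (0.90) and Gast (0.90). Closest to Csn1s1 were Tex35 (0.91), Crybb1 (0.88), Itih3 (0.88), Pla2g1b (0.87) and Gm13010 (0.87), and to Csn3 Dmbt1 (0.92), Onecut2 (0.89), Ccr1 (0.88), Trim31 (0.88) and Psg25 (0.88). No casein was among the 5 genes closest to another: the highest r between caseins was 0.83, for Csn1s1 with Csn1s2a, and the lowest 0.40, for Csn1s1 with Csn3. Units of 1 library share its mice and depth.

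Within Aire-gated WT-Control cells, the genes higher in the 777 cells with Csn2 above the thymocyte-gated level than in the other 2454 were led by Csn1s2a, at a log2 ratio of 3.48 (10 CPM added) and 3.41 in Cd40-/- Control. Then came Fgg (2.72 and 2.25), Amtn (2.62 and 1.73), Pth (2.50 and 0.99), 1810065E05Rik (2.37 and 1.91), Il9 (2.37 and 2.78), Rarres1 (2.30 and 2.55), Fabp2 (2.30 and 0.63), Csn1s1 (2.15 and 1.10) and Gip (2.12 and 2.39). So 2 of the 10 leading genes were caseins and 1 more, Amtn, was of their region. Rarres1 was the only one of these 10 with enough UMIs in WT-RANKL-Ab, at 2.39. Aire stood at 709 CPM in the cells above and 587 in the others.

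For the rare caseins such lists rested on few cells. Csn1s1, from 40 cells, gave Il17a (5.28), Esp15, Il9 (4.90), Gspt2, Hbb-y, Ceacam11, Ifna16, Esp16, Ccdc54 and Prl8a2, and 1 cell held 40.2% or more of the UMIs of each among these cells. Csn1s2a, from 95 cells, gave Esp15 (4.14), Il9 (3.79), Il17a (3.32), Lce3b, Olfr1459, Gm3880, Try4, Gspt2, Gm8300 and Sln, with at least 51.4% in 1 cell. Csn3, from the 136 cells with any Csn3 UMI, gave BC037156 (2.93, and 2.57 in Cd40-/- Control), Pmch, Smr3a, Prss1, Olfr1459, Odam (2.51 and 1.95), Gm3880, Gm8300, Lor and Gm5941. Of these, BC037156 and Odam had under 20% of their UMIs in 1 cell, at 12.8% and 19.7%. Most of these genes did not lead in Cd40-/- Control. For Csn1s1, of 5 genes with enough UMIs there, Il9 was at 3.25, Gspt2 at 0.30 and Hbb-y, Il17a and Prl8a2 between -0.47 and -0.28. For Csn1s2a, of 8 genes, Il9, Try4, Il17a and Lce3b were between 1.48 and 3.11, Gm3880 was at 0.58 and Gspt2, Gm8300 and Sln between -1.07 and -0.65. For Csn3, Lor was at 2.70, and Pmch, Smr3a, Prss1, Gm3880, Gm8300 and Gm5941 were between -0.91 and 0.01.

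Genes that mark other cell types also differed between the groups, and their part in the casein differences was not tested. The CD45- TER119- sort would remove most thymocytes, myeloid, erythroid and B cells, so the thymocyte-gated cells used as a blank are ones that passed it, and whether these UMIs came from such cells or from epithelial cells was not tested. The 11 thymocyte markers, detected in every library and led by Trbc2, summed to 169, 919.8, 988 and 1943 CPM in library order, the reverse of the caseins at both ends. The 5 myeloid markers summed to 446, 114, 402 and 64.1 CPM, led by Lyz2 in the first 3 libraries and by Ptprc in the last, where Ptprc was 58.5 CPM. Ptprc, which encodes CD45 of all leukocytes, went the other way, at 5.98, 26.9, 41.0 and 58.5 CPM, and without it the other 4 markers summed to 440.3, 87.3, 361 and 5.59 CPM. The 3 erythroid markers summed to 137, 2.22, 36.3 and 0.522 CPM, led by Hbb-bs or Hba-a1. The 2 B cell markers summed to 10.8, 1.40, 7.23 and 0.157 CPM, led by Cd79a, with Ms4a1 at 0 in Cd40-/- RANKL-Ab. The 3 mesenchymal markers, led by Col1a1 or Col3a1, summed to 13.1, 5.80, 22.2 and 18.6 CPM, and the 2 endothelial markers, led by Pecam1, to 5.63, 8.04, 10.1 and 9.29 CPM. All 5 myeloid, 3 erythroid, 3 mesenchymal and 2 endothelial markers had UMIs in every library.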

How the data were processed

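The authors ran Fastp on the reads and then Cell Ranger with mm10 as reference (5.0.1 in the file headers, 5.1 in the submitters' notes); the deposited values are raw UMI counts per gene and called barcode. Members and gene lists were chosen with earlier results of these data known. Here barcodes under 200 genes (79, 73, 178 and 4 in library order) and those over 25% mitochondrial UMIs (293, 209, 349 and 13) were left out. No doublet caller was run; the 5% of cells with the most UMIs were left out as an alternative. Matrices were analysed with Python 3.11.15, numpy 2.4.6, scipy 1.17.1 and pandas 2.3.3 and drawn with matplotlib 3.10.9; coordinates are from GENCODE M21.

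A class score was the sum of marker UMIs per 10000 UMIs, with at least 2 marker UMIs required. Where several gates passed, the first applied of thymocyte, tuft, neuroendocrine, ciliated, microfold, keratinocyte, enterohepatic, cycling, Aire, cTEC, progenitor and CCL21. Cells that passed both the thymocyte and the cTEC gate formed a mixed class. The limits, set after the score distributions were seen and without the caseins, were thymocyte 25, cTEC 100, CCL21 20, progenitor 20, cycling 8, Aire 6, tuft 20, microfold 30, neuroendocrine 15, ciliated 15, keratinocyte 60 and enterohepatic 30. Intervals at the 95% level were Poisson for CPM, Clopper-Pearson for shares and conditional binomial for ratios, and a gene without a UMI was set to a floor of 3 counts. Thinning was without replacement. The ratios, intervals and thinning were tested on simulated data. Gene lists covered the casein region, milk genes, lactogenic regulators, regulators of promiscuous expression and other tissue-restricted genes. Their members were named with at least 20 UMIs in WT-Control and WT-RANKL-Ab together. The 5 genes most like each casein across classes had at least 200 UMIs, and the 10 leading genes in single cells at least 50. Alternatives changed the filters, scaling, weighting, gates, thinning, background and barcodes. Fdcsp of the region's list was not found by symbol, Muc10 was counted as Prol1 and Spt1 as Mucl2.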

Additional observations from a re-analysis of the deposited data

Results flagged for a closer look

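Barcodes that the filters on genes and mitochondrial UMIs left out also carried Csn2, above the limit of 3 counts. There were 102 Csn2 UMIs in 372 such barcodes of WT-Control (310 CPM, 252 to 376), 5 in 282 of WT-RANKL-Ab (20.2 CPM, 6.55 to 47.1) and 124 in 527 of Cd40-/- Control (269 CPM, 224 to 321). None was found in 17 such barcodes of Cd40-/- RANKL-Ab. With every barcode kept, 11 of 11 casein ratios over all cells that have an interval stayed within it.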

How the results depend on the processing

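Of the casein ratios over all cells that have an interval, 11 of 11 stayed within it under a mitochondrial limit of 13%, without any filter, with totals that left out Ccl21a or the region's list, and without shared barcodes, as did 10 of 10 ratios in Aire-gated cells under that mitochondrial limit and without shared barcodes. The bounds of Cd40-/- RANKL-Ab stayed below WT-Control under these settings. All 12 joint-detection ratios with a value stayed within theirs without the 5% deepest cells. Cell number limits what can be seen of the rare caseins: in the 80 Aire-gated cells of Cd40-/- RANKL-Ab the floor of 3 counts was 4.65 CPM, and the exact interval of 0 UMIs reached 5.71. Except where named, the cause of a change was not tested.

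Subtracting the thymocyte-gated level reversed 3 ratios: over all cells Csn2 in WT-RANKL-Ab (0.45) and Cd40-/- Control (3.2), and in Aire-gated cells Csn1s2a in Cd40-/- Control (2.49). Over all cells it moved Csn2 in Cd40-/- RANKL-Ab to -4.10. In Aire-gated cells it moved Csn2 to -0.85 for WT-RANKL-Ab, 1.28 for Cd40-/- Control and -4.05 for Cd40-/- RANKL-Ab, and Csn1s2a to -2.61 in WT-RANKL-Ab and -2.90 in Cd40-/- RANKL-Ab. It gave no value where a level lay at or below the subtracted one. The subtracted Csn2 level of WT-Control was 737 CPM, from cells that also held Aire and Epcam UMIs. Thymocyte-gated cells without epithelial UMIs held far less Csn2, at 81.2, 2.74 and 26.7 CPM in the first 3 libraries. The reversals were not tested with those lower levels.

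As a mean over cells, the ratios over all cells were -2.25 for Csn2, -3.64 for Csn1s2a and -1.44 for Csn3 in WT-RANKL-Ab, -0.46 for Csn1s1 and -0.20 for Csn2 in Cd40-/- Control and -8.29 for Csn2 in Cd40-/- RANKL-Ab. In Aire-gated cells they were -1.89 for Csn2 and -3.78 for Csn1s2a in WT-RANKL-Ab, -1.08 for Csn1s1 and -0.475 for Csn1s2a in Cd40-/- Control and -6.81 for Csn2 in Cd40-/- RANKL-Ab. Without the 5% deepest cells, the ratios over all cells were -3.03 for Csn2 and -3.80 for Csn1s2a in WT-RANKL-Ab and -0.47 for Csn1s1, -0.19 for Csn2 and -0.54 for Csn1s2a in Cd40-/- Control, and in Aire-gated cells of WT-RANKL-Ab -2.28 for Csn2 and -4.48 for Csn3.

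With gate limits doubled, ratios in Aire-gated cells were -1.05 for Csn2, -3.57 for Csn1s2a and -1.89 for Csn3 in WT-RANKL-Ab, 0.0425 for Csn2 and -0.00846 for Csn1s2a in Cd40-/- Control, and -2.49 for Csn2 and -1.03 for Csn1s2a in Cd40-/- RANKL-Ab. With limits halved they were -2.68 for Csn2 and -3.76 for Csn1s2a in WT-RANKL-Ab, 0.21 for Csn2, -0.31 for Csn1s2a and -0.0503 for Csn3 in Cd40-/- Control and -6.54 for Csn2 in Cd40-/- RANKL-Ab. With at least 3 Aire UMIs per 10000, a limit chosen after seeing the data, they were -3.43 for Csn1s1, -0.79 for Csn2, -3.07 for Csn1s2a and -0.97 for Csn3 in WT-RANKL-Ab, 0.10 for Csn2 in Cd40-/- Control and -1.27 for Csn2 in 4 cells of Cd40-/- RANKL-Ab.

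Thinned Csn2 shares of Aire-gated cells were 54.2%, 28.8%, 58.9% and 7.69% in library order with limits doubled, and 41.5%, 7.73% and 48.3% in the first 3 with limits halved. Halved limits gave Csn2 shares of 64.9% and 62.7% in microfold-gated cells of WT-Control and Cd40-/- Control. Doubled limits gave Csn1s1 shares of 0 in Aire-gated cells of WT-RANKL-Ab and in microfold-gated cells of Cd40-/- Control. More UMIs per cell raise such shares by construction. Unthinned, shares in Aire-gated cells of WT-Control and Cd40-/- Control were 3.53% and 2.94% for Csn1s1, 79.1% and 82.3% for Csn2, 6.34% and 5.23% for Csn1s2a and 4.21% and 3.21% for Csn3, with 21.9% for Csn2 in WT-RANKL-Ab, and in microfold-gated cells 81.9% and 80.1% for Csn2. At 2000 UMIs, Aire-gated shares were 1.64% (WT-Control), 0 (WT-RANKL-Ab) and 1.16% (Cd40-/- Control) for Csn1s1, 61.4% and 67.7% for Csn2 and 1.57% and 1.45% for Csn3 in WT-Control and Cd40-/- Control, and microfold-gated Csn2 shares were 78.6%, 70.7% and 84.3% for the first 3 libraries.

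For joint detection in WT-Control, no thinning (chosen after seeing the data) gave 1.23 for Csn1s1 with Csn2, 3.13 for Csn1s1 with Csn3 and 1.21 for Csn2 with Csn1s2a, and 2000 UMIs gave 1.51 for the last pair. With at least 2 UMIs required, Csn1s1 with Csn3 reversed to 0, Csn1s1 with Csn2 was 2.95, with Csn1s2a 15.9, and Csn2 with Csn1s2a 2.90, while Csn1s2a with Csn3 in Cd40-/- Control was 0.

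Cells above background in all classes numbered 57 for Csn1s1, 1284 for Csn2, 146 for Csn1s2a and 236 for Csn3 in WT-Control. A tail of 1e-05 gave 33 for Csn1s1 there. With cTEC-gated cells as background the counts were 2321 for Csn2, 226 for Csn1s2a and 116 for Csn3 in WT-Control, 7 for Csn1s2a in WT-RANKL-Ab (15 before), 70 for Csn1s1 (129 before) and 61 for Csn3 (119 before) in Cd40-/- Control and 3 for Csn2 in Cd40-/- RANKL-Ab (11 before). Where thymocyte-gated cells had no UMI of a gene, as for Csn3 in every library and in each case with a count before in brackets, every cell with a UMI counted, so another background could not raise the count. Thymocyte-gated cells without epithelial UMIs, chosen after seeing the data, gave 207, 2796 and 368 for Csn1s1, Csn2 and Csn1s2a in WT-Control.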
